A study of Mus musculus with 15 samples.

Results

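The 9 genes described here code for components and regulators of complement, a cascade of plasma proteins that tags and lyses targets. They were chosen by name, with earlier results of these data known: C1qa, C1qb, C1qc, C1ra, C2, C3, C4b, Cfb and Serping1. The table held 32544 entries, and all 9 genes were among the 15494 that passed the filter on low values, so that none was lost.

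Complement can be started in several ways. In the classical pathway C1q, a recognition protein built from A, B and C chains, binds antibody or other surfaces and its partner proteases C1r and C1s then cut C4 and C2. In the alternative pathway factor B, the product of Cfb, pairs with C3, and every pathway meets at the cutting of C3. Serping1 codes for C1 inhibitor, which blocks C1r and C1s. Liver makes most of the complement in plasma, whereas C1q comes mainly from macrophages and related myeloid cells, and several of the other genes are known to respond to interferons and inflammatory cytokines in many cell types.

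The tumors were grown under the skin of wild-type female BALB/c mice from WEHI-164, a fibrosarcoma line of that strain, so each library mixes tumor cells with the host cells around them. Day 0 tumors were untreated, and tumors of days 1, 3, 5 and 7 received poly(I:C), a synthetic double-stranded RNA sensed by Toll-like receptor 3, injected into the tumor at 1 µg in 25 µL each day with 6 doses planned. Each day had 3 tumors, and the treated days share the same untreated tumors as controls. Mice were bought at 8 to 12 weeks of age. A supplementary legend gives a higher daily dose and calls the controls vehicle-treated, so dose and control injection are uncertain, and time, number of doses and tumor age rise together and cannot be told apart.

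Poly(A) RNA of whole tumors gave between 23713090 and 31913106 counts per tumor, and levels are given in CPM, the counts of a gene relative to the total of its library, scaled with trimmed-mean (TMM) factors. Of the 15 tumors 1 stood apart: day 3 replicate 1 had a mean correlation of 0.884 with the other 14, each of which reached 0.956 or more, and the day 3 values it moves most are given with and without it. Its summed CPM of 7 skeletal muscle markers was 2519, against 53.3 to 147 in the other day 3 tumors, and its fibroblast and stroma markers summed to 29249 against 8787 and 9080. All 8 of the latter markers had counts in every tumor. In bulk tumor a higher level can reflect more cells of a type or more RNA per cell, which cannot be told apart here.

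All coordinates are on GRCm38, counted from 1. The C1q chains lie side by side on the minus strand of chromosome 4, C1qb at 136880129 to 136886187, C1qc at 136889804 to 136893065 and C1qa at 136895917 to 136898803, within 18675 bases in all. C4b (34728380 to 34743882), Cfb (34856374 to 34862518) and C2 (34862604 to 34898265) lie in the MHC class III region of chromosome 17, on the minus strand, with 85 bases between Cfb and C2. C3 lies farther along chromosome 17 (57203970 to 57228136, minus strand), C1ra on chromosome 6 (124512405 to 124523443, plus strand) and Serping1 on chromosome 2 (84765387 to 84775444, minus strand).

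Promoter sequence is shown for C1qb, a chain of the recognition protein, and for C3, the protein at which the pathways meet. Both are the 250 bases before the RefSeq start site, on GRCm38.p6 and the minus strand, printed 5′ to 3′ with motif matches in capitals. C1qb spans chr4:136886201-136886450 and C3 spans chr17:57228137-57228386.
C1qb: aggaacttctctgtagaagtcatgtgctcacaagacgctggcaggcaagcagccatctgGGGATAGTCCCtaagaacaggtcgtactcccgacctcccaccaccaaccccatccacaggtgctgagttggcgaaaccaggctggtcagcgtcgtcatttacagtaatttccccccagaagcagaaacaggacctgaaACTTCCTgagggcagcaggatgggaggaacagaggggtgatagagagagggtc
C3: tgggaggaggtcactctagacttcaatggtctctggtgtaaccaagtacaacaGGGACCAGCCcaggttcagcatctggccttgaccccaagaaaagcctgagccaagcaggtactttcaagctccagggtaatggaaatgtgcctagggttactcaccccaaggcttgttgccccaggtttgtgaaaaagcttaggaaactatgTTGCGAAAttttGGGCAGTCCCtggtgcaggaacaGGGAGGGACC

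In C1qb the capitals mark a PU.1 core (AGGAAGT on the other strand) at position -53 from the start, the motif of a myeloid transcription factor, and 2 NF-kB matches (GGGA and CC with any 4 bases between them, on either strand) that overlap each other at -191 and -190. In C3 they mark a C/EBP match (TTGCNNAA) at -45 and 3 NF-kB matches at -197, -33 and -10. Of 32851 RefSeq promoters of 300 bases (250 before to 50 after the start), 9.35% held the PU.1 core, 10.8% the C/EBP and 20.7% the NF-kB letters on either strand. An interferon-stimulated response element (a pair of GAAA with any 2 bases between them, in 3.44% of promoters) was not found in the promoters of the 4 of 9 genes that had an entry, which says only that these letters are not in these windows. The entries for C1qc and C1ra start 151 and 216 bases inside the GENCODE gene and are not printed; C1qc also held a PU.1 core and an NF-kB match, and C1ra a C/EBP match and a gamma-activated site (TTCNNNGAA, in 8.3% of promoters). A match is a description of letters and not evidence of binding.

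Per length of merged exons, the C1q chains were the most abundant of the 9 in untreated tumors. C1qa stood at 378 ± 62.8 CPM per kb, C1qb at 223 ± 47.6 and C1qc at 145 ± 30.1 (SD, n = 3). The order below them was Cfb (38.0 ± 10.1), C3 (31.8 ± 2.29), C1ra (29.3 ± 3.15), C2 (21.3 ± 3.55), Serping1 (18.8 ± 8.29) and C4b (9.17 ± 3.18), in which Cfb, C3 and C1ra lie within their spread of each other. With the longest transcript in place of merged exons C1qc moved to 233 and C2 to 31.2 CPM per kb.

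The recognition chains of the classical pathway were highest on day 3. C1qa was at 318, 429.9 and 432 CPM on day 0, 305, 373 and 638 on day 1, 1633, 676 and 822 on day 3, 589, 737 and 445 on day 5 and 438, 586 and 242 on day 7. Every day 3 tumor lay above every day 0 and day 1 tumor, and replicate 1 was the highest of day 3. C1qb was at 187, 289 and 252 CPM on day 0, 183, 239 and 434 on day 1, 1233, 438 and 539 on day 3, 415, 531 and 298 on day 5 and 298, 379 and 157 on day 7. C1qc was at 214, 322 and 306 CPM on day 0, 227, 307 and 513 on day 1, 1324, 513 and 652 on day 3, 445, 633 and 357 on day 5 and 367, 445 and 193 on day 7. Both repeated the pattern of C1qa, except that 1 day 1 tumor overlapped the lowest day 3 tumor for C1qc. Against day 0 the day 3 log2 fold change was 1.41 ± 0.40 (SE) for C1qa, 1.60 ± 0.45 for C1qb and 1.56 ± 0.42 for C1qc, with an edgeR adjusted p of 0.115 for each, which does not pass the threshold of 0.05. Without day 3 replicate 1 the differences were 0.93, 1.01 and 1.06.

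C1r and C1 inhibitor are the protease of the C1 complex and its brake. C1ra was at 76.8, 95.1 and 89.6 CPM on day 0, 81.8, 124 and 217 on day 1, 393, 181 and 131 on day 3, 200.5, 105 and 60.1 on day 5 and 53.6, 96.8 and 45.8 on day 7. Every day 3 tumor was above every day 0 tumor, but 1 day 1 and 1 day 5 tumor exceeded the lower day 3 tumors. Serping1 was at 21.6, 57.2 and 52.3 CPM on day 0, 29.4, 27.2 and 185 on day 1, 610.2, 139 and 73.9 on day 3, 214, 57.7 and 25.6 on day 5 and 15.5, 61.9 and 6.48 on day 7. It had the widest range of the 9 genes, 94.2-fold between the highest and the lowest tumor, and 8.26-fold among the 3 tumors of day 3 alone. The day 3 log2 fold change was 1.43 ± 0.51 for C1ra (edgeR adjusted p = 0.119) and 2.65 ± 1.12 for Serping1 (edgeR adjusted p = 0.147), neither of which passed. Without day 3 replicate 1 they were 0.84 and 1.29, the Serping1 value being the one that moved most among the 9.

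C2 and C4 supply the enzyme that the classical pathway builds to cut C3. C2 was at 67.8, 95.0 and 84.7 CPM on day 0, 99.3, 134 and 235 on day 1, 146, 141 and 132 on day 3, 114, 87.4 and 68.5 on day 5 and 76.6, 70.9 and 62.9 on day 7. It was the only member of the 9 with its highest day mean on day 1, and on day 3 its tumors were within 1.10-fold of each other, the narrowest spread of any of these genes on a treated day. C4b was at 32.8, 68.6 and 55.2 CPM on day 0, 43.0, 83.8 and 269 on day 1, 746, 193 and 215 on day 3, 212, 137 and 49.9 on day 5 and 29.6, 119 and 22.1 on day 7. All 3 day 3 tumors exceeded all day 0 tumors, and day 1 replicate 3 and day 5 replicate 1 reached the range of the lower day 3 tumors. The day 3 log2 fold change was 0.76 ± 0.27 for C2 (edgeR adjusted p = 0.118) and 2.88 ± 0.87 for C4b (edgeR adjusted p = 0.115), the smallest and the largest of the 9. Neither passed, and without day 3 replicate 1 the values were 0.73 and 1.97.

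C3 and factor B are the shared substrate and the amplifier of the alternative pathway. C3 was at 150.1, 167 and 173 CPM on day 0, 106, 156 and 480.0 on day 1, 1490.5, 565 and 334 on day 3, 909.9, 339 and 91.1 on day 5 and 35.4, 254 and 31.5 on day 7. Untreated tumors were tightly grouped, within 1.15-fold, whereas day 5 tumors differed 9.99-fold and day 7 tumors 8.06-fold. Cfb was at 76.7, 133 and 112 CPM on day 0, 162, 152 and 654 on day 1, 879, 580.4 and 394 on day 3, 311, 325 and 123 on day 5 and 67.6, 213 and 52.7 on day 7. Cfb was already above all untreated tumors in each day 1 tumor, and each day 3 tumor was again above all untreated ones. The day 3 log2 fold change was 2.28 ± 0.97 for C3 (edgeR adjusted p = 0.147) and 2.53 ± 0.67 for Cfb (edgeR adjusted p = 0.115). Neither passed, and without day 3 replicate 1 the values were 1.46 and 2.19.

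**Figure D1:**
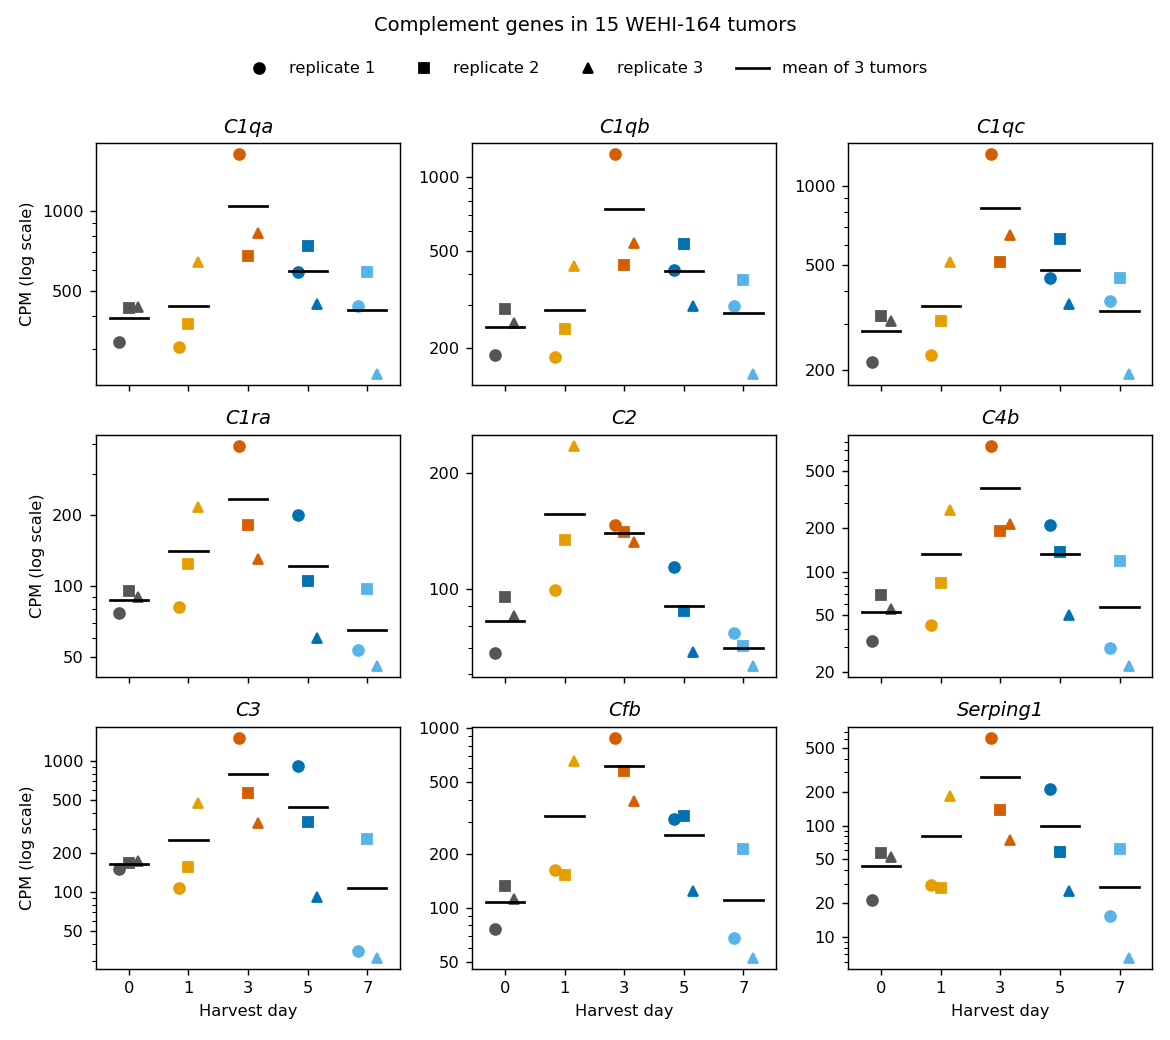
Level of each of the 9 genes in every tumor, in CPM on a log scale, by harvest day, with symbols for the replicate number and a bar for the mean of 3 tumors. All 3 day 3 tumors sit above all 3 day 0 tumors in each panel, and day 3 replicate 1 is the highest tumor in every panel except C2, where day 1 replicate 3 is.

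The comparison of day 3 with day 0 asked how the tumors differed after a few days of dosing. In all 9 genes the groups did not overlap, with day 3 higher, as did 19.4% of all genes tested. The fitted fold ran from 1.69 for C2 to 7.37 for C4b, and the median log2 fold change was 1.60, against -0.02 over all genes tested. By edgeR 0 of 9 were called, and 0% of all genes were, with an unadjusted p under 0.05 and a higher level in 9 of 9 beside 18.3% of all genes. By DESeq2 7 of 9 were called higher, beside 9.43% of all genes; C3 (DESeq2 adjusted p = 0.088) and Serping1 (DESeq2 adjusted p = 0.0703) were not. Cfb had the smallest DESeq2 adjusted p, 0.00699. DESeq2 called 0 of 9 once replicate 1 of day 3 or replicate 1 of day 0 was left out and 1 of 9 when replicate 3 of day 0 was. Here and below, counts of genes with a tumor left out lack the share of all genes in that fit. Such counts do not show whether the genes stood out.

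**Figure D2:**
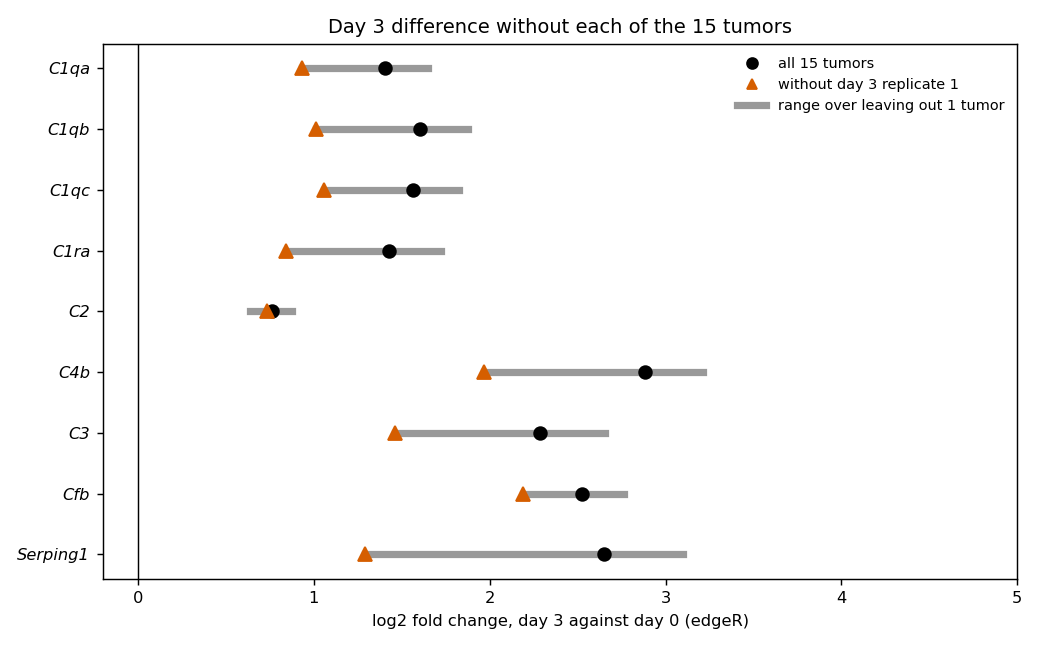
Log2 fold change of each gene on day 3 against day 0 (edgeR) with all 15 tumors (circles), without day 3 replicate 1 (triangles), and the range over leaving out each tumor in turn (gray bars). No value reaches 0; the lowest is 0.64, for C2 without day 0 replicate 1, and leaving out day 3 replicate 1 gives the lowest value in the other 8 genes.

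Day 1 tumors were taken after the least treatment. C2 and Cfb were the only 2 of the 9 whose day 1 tumors all exceeded the untreated ones, as did 5.76% of all genes, and 4 of 9 did without day 1 replicate 1. C2 had a log2 fold change of 0.92 ± 0.27 (edgeR adjusted p = 0.937) and Cfb of 1.59 ± 0.65 (edgeR adjusted p = 1.00). Neither was called, nor was any other of the 9 by edgeR (0% of all genes) or DESeq2 (0.259%), with 2 of 9 higher at an unadjusted p under 0.05 beside 2.18% of all genes (1 of 9 when replicate 1 or 3 of day 0 or replicate 3 of day 1 was left out). C4b (1.34 ± 0.82), Serping1 (0.88 ± 1.07), C1ra (0.69 ± 0.50) and C3 (0.60 ± 0.93) overlapped the untreated tumors. The counts with a tumor left out have no share of all genes beside them. Day 1 replicate 3 was the highest of its day for all 9 genes. Without it Cfb was at 0.55, C2 at 0.50, C4b at 0.28 and C1ra at 0.24, and Serping1 turned to -0.62 and C3 to -0.31. The C1q chains lay between 0.16 and 0.32, and between -0.21 and -0.067 without that tumor. Summed CPM of 26 type I interferon response genes ran from 1789 to 2302 in untreated tumors and from 3419 to 8582 on day 1, with the highest in replicate 3, and its part in the complement levels was not tested.

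For day 3 against day 1 the log2 difference was 1.25 ± 0.39 for C1qa, 1.37 ± 0.44 for C1qb and 1.25 ± 0.42 for C1qc, against -0.16 ± 0.26 for C2 and 0.94 ± 0.64 for Cfb. The difference between these differences was not tested. It was 1.69 ± 0.95 for C3, 1.54 ± 0.82 for C4b and 1.77 ± 1.08 for Serping1. Leaving out day 3 replicate 1 gave 0.77, 0.77 and 0.73 for C1qa, C1qb and C1qc, 0.85 for C3, 0.62 for C4b, 0.59 for Cfb and 0.39 for Serping1. Leaving out day 1 replicate 3 gave 2.61 for C3 and for C4b, 1.98 for Cfb and 3.28 for Serping1. Only C1qa and C1qb were without overlap, day 3 higher, as were 7.53% of all genes, and 8 of 9 were without day 1 replicate 3. The edgeR test called 0 of 9 (0% of all genes). An unadjusted p under 0.05 was reached by 3 of 9, the C1q chains, beside 12.8% of all genes in the same direction, by 0 of 9 without day 3 replicate 1 and by 7 of 9 without day 1 replicate 3. DESeq2 called 0 of 9 (0.182% of all genes), 6 of 9 when replicate 3 of day 1 was left out and 3 of 9 when replicate 2 or 3 of day 3 was. No share of all genes is given for the counts with a tumor left out, so they do not show whether these genes stood out. C2 turned to 0.26 without day 1 replicate 3.

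Day 5 values lay closer to those of untreated tumors, with large differences between tumors. All 9 log2 fold changes against day 0 were above 0 (50.3% of all genes), from 0.12 for C2 to 1.45 ± 0.94 for C3. The C1q chains were 3 of 9 without overlap, day 5 higher, beside 6.89% of all genes, with log2 fold changes of 0.58 ± 0.39, 0.77 ± 0.44 and 0.77 ± 0.41 for C1qa, C1qb and C1qc, and 8 of 9 did not overlap without day 5 replicate 3. By edgeR 0 of 9 were called (0% of all genes), by DESeq2 0 of 9 (0.0742%), and 0 of 9 had an unadjusted p under 0.05 beside 4.80% of all genes (1 of 9 if replicate 3 of day 5, replicate 3 of day 1, replicate 1 of day 3 or replicate 2 of day 7 was left out). C1ra, C2 and Serping1 turned to -0.081, -0.081 and -0.069 without day 5 replicate 1, the tumor with the most C3 of that day, and C3 was then at 0.40 and C4b at 0.84. Against day 3, C2 and Cfb were lower in all 3 day 5 tumors, 2 of 9 beside 4.83% of all genes (5 of 9 if replicate 2 of day 3 or replicate 1 or 2 of day 5 was left out and TMM factors were recomputed, and 6 of 9 for the first of these with the factors kept), and edgeR and DESeq2 called 0 of 9 (0% of all genes by each), with 1 of 9, C2, lower at an unadjusted p under 0.05 beside 5.24% (0 of 9 if replicate 1 of day 3 or replicate 3 of day 5 was left out, and 2 or 3 of 9 if another day 3 or day 5 tumor, replicate 3 of day 1 or replicate 2 or 3 of day 7 was). For the counts with a tumor left out the share of all genes is not given, so they do not show whether these genes stood out. The C3 difference from day 3 was -0.83 ± 0.93 and turned to 0.0066 without day 3 replicate 1.

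On day 7 the 9 genes lay near or below their untreated levels. Log2 fold changes against day 0 ran from -0.64 ± 1.07 for Serping1 to 0.26 ± 0.41 for C1qc, with 5 of 9 above 0 (44.5% of all genes) and the median at 0.05. These 5, the C1q chains, C4b and Cfb, ran from -1.01 to -0.0037 without day 7 replicate 2. All 9 groups overlapped, where 5.02% of all genes lay wholly higher and 6.26% wholly lower. Without day 7 replicate 3, 3 of 9 lay wholly higher, and without day 7 replicate 2, 5 of 9 (C1ra, C3, C4b, Cfb and Serping1) lay wholly lower. Shares of all genes with these tumors left out are not given, so the counts do not show whether these genes stood out. By test, 0 of 9 were called by edgeR (0% of all genes) or DESeq2 (0.0324%) or had an unadjusted p under 0.05 (2.07%, and 1 of 9 if replicate 2 of day 7 was left out). With standard errors of 0.27 to 1.07 these tests do not show that the levels had returned. Day 7 replicate 2 was the highest of its day for 8 of the 9 genes and replicate 3 the lowest for all 9. C3 was at 254 CPM in the former and 31.5 in the latter, both outside the untreated range of 150.1 to 173.

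Day 7 was also set against day 3, the day with the highest mean in 8 of the 9 genes. In all 9 genes each day 7 tumor was below each day 3 tumor, as in 18.4% of all genes. The log2 difference ran from -1.0 ± 0.27 for C2 to -3.29 ± 1.15 for Serping1, with C3 at -2.90 ± 0.99 and C4b at -2.76 ± 0.86. Without day 3 replicate 1 Serping1 was at -1.92, C3 at -2.07, C4b at -1.83 and the C1q chains between -0.82 and -0.79, and without day 7 replicate 2 the first of these were at -4.64, -4.58 and -3.89. The edgeR adjusted p lay between 0.0832 and 0.0900, so that 0 of 9 were called (0% of all genes), with 9 of 9 lower at an unadjusted p under 0.05 beside 22.6% of all genes (5 of 9 if replicate 1 of day 3 was left out). DESeq2 called 9 of 9 lower beside 15.4% of all genes, but 0 of 9 once replicate 1 of day 3 or replicate 1 or 3 of day 7 was left out. Without day 3 replicate 3 edgeR called 6 of 9, and the share of all genes called in that fit is not given here. Day 7 against day 5 had 0 of 9 called by edgeR (0% of all genes) and by DESeq2 (0.0130%), with 0 of 9 under an unadjusted p of 0.05 (3.02%, and up to 5 of 9, without replicate 2 of day 7) and differences from -2.06 to -0.36. All 9 groups overlapped there (3.54% of all genes lay wholly lower), and 7 of 9 did not if replicate 3 of day 5 or replicate 2 of day 7 was left out (6 of 9 for the latter with TMM factors kept). None of the counts with a tumor left out has the share of all genes beside it.

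**Figure D3:**
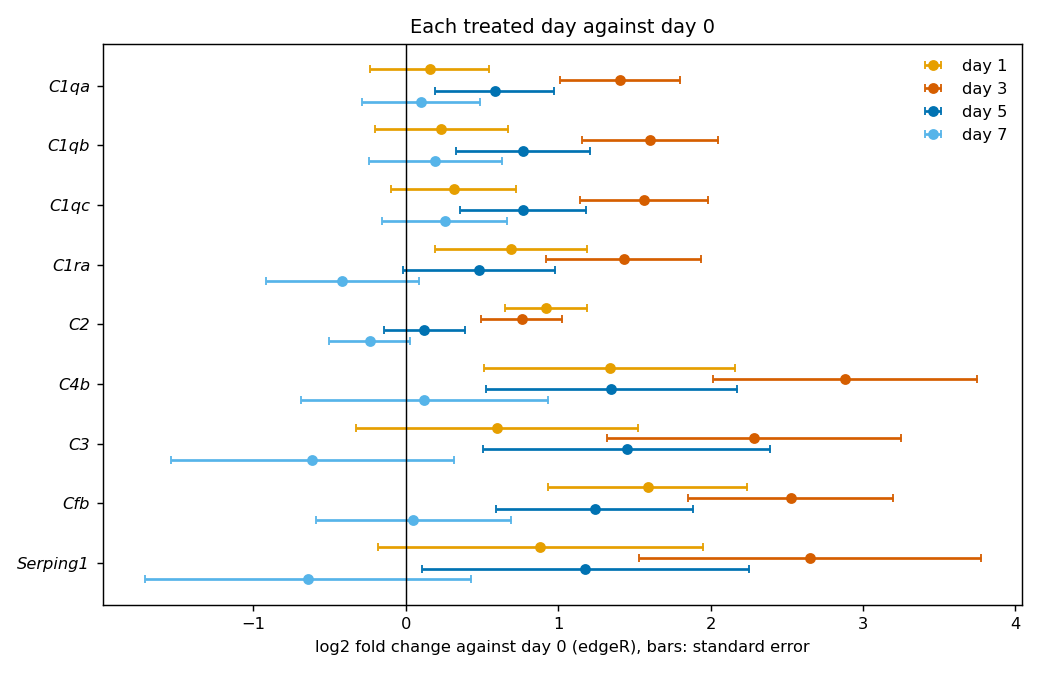
Log2 fold change of each gene against day 0 on days 1, 3, 5 and 7 (edgeR, points) with standard errors (bars). The day 3 points are the farthest right for every gene except C2, whose day 1 point is, and the day 7 points run from -0.64 to 0.26.

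A joint test of the 4 treated days against day 0 called 0 of 9 by edgeR (0% of all genes), with 7 of 9 under an unadjusted p of 0.05 beside 16.2% of all genes. DESeq2 called 6 of 9 beside 7.63% of all genes, namely the C1q chains, C1ra, C2 and Cfb, 1 of 9 without day 3 replicate 1 and 9 of 9 without day 7 replicate 2. The order of day means was day 3, 5, 1, 7 and 0 for the C1q chains and C4b, day 3, 1, 5, 7 and 0 for Cfb, day 3, 1, 5, 0 and 7 for C1ra, day 3, 5, 1, 0 and 7 for C3 and Serping1, and day 1, 3, 5, 0 and 7 for C2. Where neighbors in these orders were compared, edgeR did not call the difference.

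The proportion of the C1q chains to each other hardly moved. C1qa made up 38.8 to 44.2% of the summed C1q counts over the 15 tumors, C1qb 25.5 to 29.4% and C1qc 29.8 to 33.4%. Over the same tumors the sum itself ran from 591 CPM in day 7 replicate 3 to 4191 CPM in day 3 replicate 1. Per length of merged exons the chains were less even, with C1qc at 18.8 to 21.6% and C1qa at 46.3 to 52.0%. The low C1qc share depends on the length used. With the longest transcript, untreated C1qc was at 233 ± 48.4 CPM per kb beside 223 ± 47.6 for C1qb (SD). The pairwise Pearson correlations of log2 CPM were 0.993 to 0.996, a description over 15 tumors that share day and library.

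**Figure D4:**
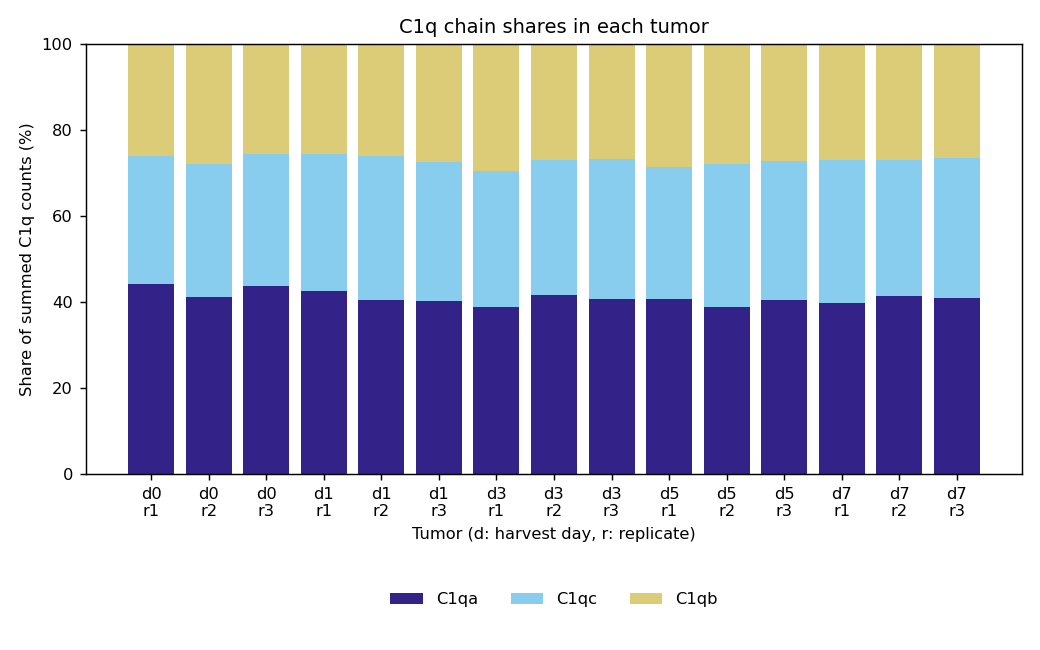
Share of each C1q chain in the summed C1q counts of each tumor, in percent, as stacked bars. The bars differ little: C1qa takes 38.8 to 44.2%, C1qc 29.8 to 33.4% and C1qb 25.5 to 29.4%.

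C1q levels were high in the tumors in which macrophage markers were. The 12 listed markers, all tested and none at 0 in any tumor, summed to 2018 to 2304 CPM on day 0, 1459 to 3133 on day 1, 3336 to 8164 on day 3, 2206 to 4760 on day 5 and 1465 to 2886 on day 7. Of these 12, 11 had a day 3 log2 fold change above 0 (48.0% of all genes) and 0 were called by edgeR (0%), with 9 of 12 higher at an unadjusted p under 0.05 (18.3%) and 9 called higher by DESeq2 (9.43%). The latter counts were 7 and 0 without day 3 replicate 1. In that fit 10 of 12 were above 0, and 1, Mrc1 (-0.90), was lower at an unadjusted p under 0.05. Cd163 then turned to -0.34, and Mrc1 was at -0.39 with all tumors. Divided by the marker sum, the C1q sum averaged 0.416 ± 0.0542 in untreated tumors, then 0.480 ± 0.0315, 0.526 ± 0.0718, 0.440 ± 0.117 and 0.472 ± 0.0617 in tumors of days 1, 3, 5 and 7 (SD over 3 tumors each), and ran over all tumors from 0.304 to 0.603. Lyz2 was the largest single marker, at 3318 of the 4760 CPM in day 5 replicate 1, the tumor with the lowest ratio. In day 0 replicate 1 Lyz2 was at 932 of 2018 CPM, and a ratio without Lyz2 was not computed. The C1q sum spanned a wider range over tumors than the ratio to all 12 markers did. The ratio was chosen after its values were seen, and the part of macrophage number in the C1q levels was not tested.

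**Figure D5:**
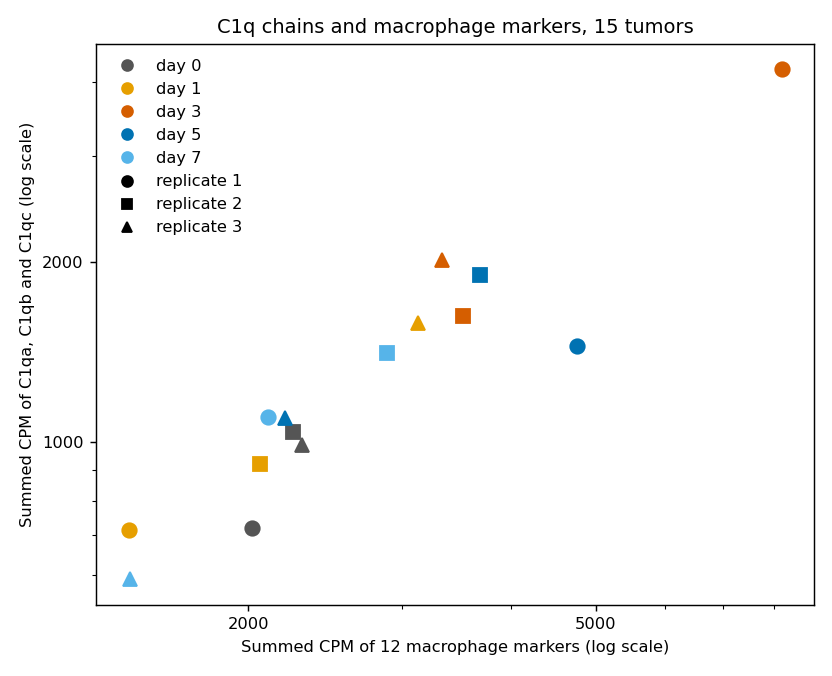
Summed CPM of the C1q chains (vertical) against summed CPM of 12 macrophage markers (horizontal), both on log scales, for 15 tumors colored by day with symbols for the replicate. The tumors run from lower left to day 3 replicate 1 at 8164 and 4191 CPM, and day 5 replicate 1 lies lowest relative to its markers at a ratio of 0.304. In the latter tumor the single marker Lyz2 was at 3318 of the 4760 CPM of the marker sum.

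The other members did not keep such a fixed proportion. Cfb to C2, neighbors on chromosome 17, had a CPM ratio of 1.29 ± 0.138 in untreated tumors and of 1.85 ± 0.846, 4.37 ± 1.53, 2.75 ± 0.958 and 1.58 ± 1.24 in tumors of days 1, 3, 5 and 7 (SD over 3 tumors each). All day 3 ratios (2.98 to 6.01) exceeded all untreated ratios (1.13 to 1.40). C4b to C2 went from 0.619 ± 0.122 on day 0 to 2.70 ± 2.08 on day 3, where replicate 1 was at 5.10 and the others at 1.37 and 1.62. Over the 15 tumors C1ra, C3, C4b, Cfb and Serping1 correlated with each other at 0.90 to 0.96 in log2 CPM, and C2 with the C1q chains at 0.54 to 0.55. These are descriptions over tumors that share their day, and none has a test.

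Summed markers of other cell types and responses were compared without a test. Adipocyte markers summed to 23.8 to 58.1 CPM on day 0 and 62.8 to 582 on day 3, and type I interferon response genes to 1789 to 2302 and 4130 to 5970. For T cell markers the sums were 29.1 to 44.1 and 73.0 to 278. The 17 interferon gamma response genes summed to 2884 to 4509 CPM on day 0 and 5607 to 12579 on day 3. Dendritic cell markers summed to 14.4 to 19.3 and 20.0 to 86.5, and B cell markers to 1.28 to 2.44 and 4.63 to 30.4. Neutrophil markers summed to 60.5 to 97.2 and 95.9 to 237. The 7 hepatocyte markers summed to 6.13 to 18.9 CPM on day 0 and 7.78 to 46.0 on day 3. Only Hp and Serpina1a of these passed the filter, Alb never exceeded 6 counts in a tumor, and Ttr and Ahsg were at 0 in all 15. Endothelial markers summed to 152 to 163 CPM on day 0 and 158 to 487 on day 3, and monocyte markers to 604 to 663 and 612 to 946. The hepatocyte, endothelial, monocyte and neutrophil sums overlapped between the 2 days. The adipocyte, type I interferon, interferon gamma, T cell, dendritic cell and B cell sums did not. Replicate 1 was the highest day 3 tumor for muscle and stroma markers and for every list above except type I interferon, where replicate 2 was. Next below it on day 3 were 92.4 CPM for adipocyte, 82.2 for T cell and 22.0 for hepatocyte markers. For endothelial and monocyte markers they were 222 and 741. For dendritic cell, B cell and neutrophil markers they were 21.6, 5.00 and 123, and for interferon gamma response genes 6096. The part of these cell types in the complement values was not tested.

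Of 48 further complement genes fixed as a list, 47 were in the table and 30 were tested. On day 3 against day 0, 25 of 30 had a log2 fold change above 0 (beside 48.0% of all genes) with a median of 0.93. By edgeR 0 of 30 were called (0% of all genes), with 11 higher (18.3%) and 1 lower (11.7%) at an unadjusted p under 0.05, and DESeq2 called 7 higher (9.43%) and 1 lower (4.09%). Without day 3 replicate 1 the median was 0.44, with 3 higher and 2 lower at an unadjusted p under 0.05, and DESeq2 called 0 higher and 1 lower. On day 7 against day 3 the median was -1.14 and DESeq2 called 15 lower (15.4% of all genes), or 0 without day 3 replicate 1. Genes with the highest level in their group are given as examples. C1s1, the partner protease of C1r, had a day 3 log2 fold change of 0.85 ± 0.44 (edgeR adjusted p = 0.203), Cfp, properdin of the alternative pathway, 1.47 ± 0.44 (edgeR adjusted p = 0.115), and C6 of the terminal pathway 1.96 ± 0.94 (edgeR adjusted p = 0.179). Cr1l, a membrane regulator, was at 0.22 ± 0.10, and Itgam, a chain of complement receptor 3, at 0.97 ± 0.29. These were, without day 3 replicate 1, at 0.49 for C1s1, 0.98 for Cfp, 0.95 for C6, 0.090 for Cr1l and 0.80 for Itgam. The 1 gene that DESeq2 called lower, Masp1 of the lectin pathway, was at -1.04 ± 0.30 (DESeq2 adjusted p = 0.0182) and was named after its value was seen. Mbl1, Mbl2 and C8b had 0 counts in all 15 tumors, and the 17 not tested never exceeded 28 counts.

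Some counts are less certain because genes share sequence. Of 100-base windows of Cfb transcripts 66.9% also occur in another gene, the Gm20547 read-through of C2 and Cfb, and 35.5% of C2 windows do. Gm20547 was credited with 0 to 257 counts per tumor. C1ra shares 34.5% of its windows with C1rb, which had far fewer counts, C1ra to C1rb running from 20.2 to 40.6. For C1rb the day 3 log2 fold change was 1.20 ± 0.67 (edgeR adjusted p = 0.226), which did not pass. Without day 3 replicate 1 the C1rb value was 0.49. C4b shares 15.2% with C4a, which had no entry in the table. The C1q chains, C3 and Serping1 shared no window with another gene.

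The genes whose log2 CPM was most like each member over the 15 tumors are given as a description, with Pearson's r. For the C1q chains Rassf4 came first in each case (r = 0.987 to 0.992), and Adgre1, the F4/80 macrophage antigen, was second for C1qc (r = 0.986). C2 was closest to Ly6c1, Trim34a and Rnf114 (0.960, 0.956 and 0.951), the lowest values among the 9. Cfb was closest to Slfn1, Sp110 and Trafd1 (0.986, 0.986 and 0.985), and C3 to Lag3, Zap70 and Degs2 (0.989, 0.983 and 0.983). C4b was closest to Aldh1b1, Arhgap27 and Themis2, Serping1 to Sh2d3c, Mgst1 and Tspan13, and C1ra to Tnfsf10, Lims2 and C1rb.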

How the data were processed

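The authors sequenced poly(A) RNA from 15 tumors as 100 base single-end reads, estimated transcript abundance with kallisto, summed transcripts to genes with tximport and deposited these estimated counts rounded to whole numbers in 1 column for each tumor. The build is GRCm38 per the labels, and the strand setting and transcript set are not given in the sources used here. Reads that match more than 1 transcript are shared out by kallisto, so counts of overlapping genes and near-identical paralogs are uncertain. A day was read from the time point label, since column names number time points, and the legends give 3 mice per group.

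The 9 genes, the other gene lists and the tests were chosen with earlier results of these data known. Of 32544 entries, 1 turned into a date by a spreadsheet was left out (at most 0.0268% of counts). Genes with CPM above 0.366 in at least 3 tumors were tested, 15494 in all, by a two-sided quasi-likelihood F test in edgeR 4.0.16 (R 4.3.3) with TMM factors and the harvest day as the only term, fitted to all 15 tumors, with Benjamini-Hochberg adjustment over all genes and calls at an adjusted p under 0.05. Groups do not overlap where all 3 CPM values of one day exceed all 3 of the other, with TMM factors recomputed when a tumor was left out unless stated. The standard error is the absolute log2 fold change divided by the square root of F. DESeq2 1.42.0 was an alternative, as were its relative log size factors, no filter, the earlier dispersion method of edgeR, fits of the compared days alone, a replicate block, leaving out each tumor and, for levels per length, the longest transcript. Fits were also run on simulated counts with the same dispersion for every gene and no tumor set apart. That simulation does not show how the tests behave with the spread of these tumors. Log2 CPM used a prior count of 2. Total counts were 23713090 to 31913106 per tumor, where 3 counts, the limit that a count of 0 allows, equal 0.0972 to 0.125 CPM, which covers counting error only. In all 15 pairs of tumors taken on the same day, counts differed beyond counting noise (chi-square per degree of freedom 9.32 to 269). Coordinates are from GENCODE M21 and promoters from RefSeq (GRCm38.p6), with entries for 4 of the 9 genes. Named genes were the 9, the highest gene of each fixed complement group (1 of which is not reported here), paralogs, and the 3 genes most correlated with each of the 9.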

Additional observations from a re-analysis of the deposited data

How the results depend on the processing

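Of 1584 log2 fold changes of the 9 genes recomputed under the alternatives, 1542 kept their direction and their side of the threshold, 22 moved past it and 20 changed sign, the cause of which was not tested. Among the 9 genes edgeR called 0 in every comparison under each edgeR alternative, except 6 in day 7 against day 3 without day 3 replicate 3 (range 0 to 6). DESeq2 called 7 in day 3 against day 0, 9 in day 7 against day 3 and 6 in the joint test. Counts of the 9 genes with a tumor left out are given without the share of all genes in the same fit. They do not show whether the 9 genes stood out there. DESeq2 with each tumor left out was added after the data were seen. For day 3 against day 0 it called 0 if replicate 1 of day 3 or of day 0 was missing, 1 or 4 if replicate 3 or 2 of day 0 was, and 6, 7 or 8 otherwise. For day 7 against day 3 it called 0 if replicate 1 of day 3 or replicate 1 or 3 of day 7 was missing, and 9 otherwise. For the joint test it called 1 if replicate 1 of day 3 was missing, 2 if replicate 1 or 3 of day 0 or replicate 1 of day 7 was, and 5, 7, 8 or 9 otherwise. For day 3 against day 1 it called 6 if replicate 3 of day 1 was missing and 3 if replicate 2 or 3 of day 3 was. For day 1 against day 0 it called 1 if replicate 1 of day 1 was missing, and for day 7 against day 5 it called 1 if replicate 2 of day 7 was.

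Leaving out 1 tumor turned the sign of some log2 fold changes. Day 1 values against day 0 ran from -0.21 to 0.36 for C1qa, -0.20 to 0.47 for C1qb, -0.067 to 0.55 for C1qc, -0.31 to 0.96 for C3 and -0.62 to 1.29 for Serping1, each lowest without day 1 replicate 3. Day 5 values ran from -0.081 to 0.81 for C1ra, -0.081 to 0.29 for C2 and -0.069 to 1.63 for Serping1, lowest without day 5 replicate 1. Day 7 values ran from -0.21 to 0.38 for C1qa, -0.094 to 0.48 for C1qb, -0.0037 to 0.53 for C1qc, -1.01 to 0.51 for C4b and -0.83 to 0.39 for Cfb, lowest without day 7 replicate 2. Without day 0 replicate 1 the day 7 values were -0.032 for C1qa, -0.12 for C4b and -0.14 for Cfb. C2 ran from -0.40 to 0.26 in day 3 against day 1, and C3 from -1.89 to 0.0066 in day 5 against day 3, or to 0.013 by DESeq2. With the replicate block Cfb was at -0.033 in day 7 against day 0, and 0 of 9 were called in every comparison. Replicate numbers did not pair the tumors, since deviations of same-numbered tumors correlated at -0.62 to 0.51 and 4 of 15 tumors correlated best with their own number. With the longest transcript as length C1qc moved to 233 and C2 to 31.2 CPM per kb in untreated tumors.

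The lowest count of any of the 9 genes in a tumor was 155, for Serping1, and whether depth limits the calls was not tested.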
